A study of Homo sapiens with 2 samples.

Results

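The 50 genes described here drive or mark the cell division cycle. They were chosen by name: 16 act in DNA replication or its onset, 5 are cyclins and kinases of the G1 phase, and 29 act in mitosis or mark cells that approach it. All 50 were found among the 57110 gene entries of the long-read matrix, of which 17806 held a count above 0. RRM2 lies in an entry that joins it with AC007240.1 and C2orf48, so its counts may include theirs. CCNE2 had only 5, 24 and 7 counts in the 3 lines compared, and the other 49 genes reached the minimum of 50 counts summed over the lines.

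The study sequenced 1 pool of the human ovarian cancer lines COV504, SK-OV-3 and IGROV1, brought together in equal parts, on 2 platforms. Each platform, Illumina and PromethION, has 1 library, and the PromethION instrument reads whole cDNA molecules through nanopores. The labels name no treatment, time or engineered allele. For the Illumina library only the barcode list was used, and all 2462 barcodes of the PromethION library were in it.

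Cells were assigned to lines by marker genes, none of which is a cell cycle gene. A barcode with at least 1000 counts was placed where 1 marker group held at least 75% of its marker counts. This gave 648 cells of an ERBB2-high line (ERBB2, NNMT, TSPAN1 and DHRS2), 473 of a RARRES2-high line (RARRES2 and TMEM100) and 765 of a FOLR1-high line (FOLR1, CLDN3, DEFB1 and CXCL14). A further 243 barcodes with at least 1000 counts were not placed, and 333 had fewer counts. The ERBB2-high line is SK-OV-3-like: GRB7, MIEN1, STARD3 and PGAP3, neighbours of ERBB2, were also highest there. CDKN2A had 1 count there but 0 in the RARRES2-high line, so it does not tell these lines apart. IGROV1 markers pointed to no single line, since PAX8 was highest in the FOLR1-high cells and CDH1 and ESRP1 in the RARRES2-high cells, while FOLR1 and CLDN3 were used to place cells, so those lines keep their marker names. The median depth was 4953, 6262 and 5289 counts per cell in the ERBB2-high, RARRES2-high and FOLR1-high lines, the order used for every series of 3 values here. Mitochondrial and ribosomal protein genes held 15.4%, 18.7% and 34.6% of the counts. Of 10 markers of leukocytes, endothelium and fibroblasts, 6, 6 and 4 were at 0 counts, CD3E, LYZ and DCN in every line, and their summed level was 60.7, 53.0 and 39.0 CPM, the counts of a gene or list per 1000000 counts of the line. Most of that came from PDGFRA, whose entry is joined with FIP1L1 and AC058822.1, and in the RARRES2-high line from CDH5 (30.5 CPM); their part in the results below was not tested.

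The cycle is run by cyclins, which rise and fall, and by the cyclin-dependent kinases they switch on. D-type cyclins with CDK4 or CDK6 inactivate the retinoblastoma protein and so release E2F transcription factors, which turn on replication genes; later, B-type cyclins with CDK1 carry the cell into mitosis, and the anaphase-promoting complex destroys them to end it. Ovarian cancers often carry lesions in this circuit, among them gain of CCNE1 and loss of CDKN2A or RB1.

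The ERBB2-high line had the lowest summed levels of replication and G1 genes. Its mitosis sum was also lowest, but on the total count its place below the FOLR1-high line rested on CKS2. The RARRES2-high line had the highest summed level of mitosis genes. In the FOLR1-high line the 16 replication genes summed to about the RARRES2-high level and the mitosis genes to slightly above the ERBB2-high level. Both statements depend on the CPM total. The first did not extend to the sum of 27 other replication genes, although the median ratio of single genes between these lines was alike in both lists. With 1 library per platform no value has a replicate and no test was made. Intervals are exact at 95%. Those on levels, ratios and transcript shares cover counting error at most. Those on a percent of cells are binomial over the cells, which share 1 library and are not replicates. In these bulk sums fewer cycling cells and less RNA per cell cannot be told apart.

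Replication genes summed to 627 CPM in the ERBB2-high line (interval 601 to 654), 1206 in the RARRES2-high line (1169 to 1244) and 1226 in the FOLR1-high line (1194 to 1258). The ERBB2-high level was thus clearly apart, at a ratio of 0.520 to the RARRES2-high line (0.493 to 0.548), while the other two overlapped. G1 genes summed to 631 (604 to 658), 1304 (1266 to 1343) and 964 CPM (936 to 993), with no overlap between lines. Mitosis genes summed to 3480 (3418 to 3543), 5446 (5367 to 5525) and 3699 CPM (3643 to 3755). CKS2 alone, at 307 and 598 CPM in the ERBB2-high and FOLR1-high lines, differed by more than the sums of these lines did. The order of the ERBB2-high and FOLR1-high sums thus rested on that gene. The RARRES2-high sum was 1.56-fold that of the ERBB2-high line (1.53 to 1.60) and 1.47-fold that of the FOLR1-high line (1.44 to 1.504). The count of replication genes per mitosis count was 0.180 (0.172 to 0.189), 0.221 (0.214 to 0.229) and 0.331 (0.321 to 0.342), highest in the FOLR1-high line for these genes. The other replication and other mitosis genes described further on gave 0.581 (0.558 to 0.605), 0.562 (0.545 to 0.580) and 0.566 (0.546 to 0.586), with overlapping intervals, so the order was not seen there. TUBB4B held 21.0%, 31.7% and 31.3% of these other mitosis counts. Leaving it out would raise the ratio least in the ERBB2-high line, so the likeness of the lines depends on that gene. Barcodes under 1000 counts, which were not placed, held 580 CPM of replication genes (446 to 740), an interval that takes in the ERBB2-high level, and 1639 CPM of mitosis genes (1409 to 1896), below every line.

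Gene by gene, a difference was counted when the CPM ratio of 2 lines reached 1.5. Against the RARRES2-high line, 33 of 49 genes were lower in the ERBB2-high line and 2 were higher, CCNE1 and CDC25B, of which 1 was left at 90% marker purity. Over all 10202 genes with at least 50 counts the balance was the other way: 35.6% were higher in the ERBB2-high line and 21.5% were lower. The median ratio of the ERBB2-high to the RARRES2-high line was 0.527 over the cell cycle genes and 1.16 over all genes.

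Against the FOLR1-high line, 20 genes were lower in the ERBB2-high line and 5 were higher (CCND3, CDK6, CDK1, UBE2S and CDC25B), beside 15.6% lower and 43.8% higher of all genes. Replication genes made up 11 of the 20, and 7 were mitosis genes out of 29 tested, which became 11 and 11 on the reduced total described in the next paragraph. Between the RARRES2-high and FOLR1-high lines 18 genes were higher in the former and 6 in the latter (MCM5, MCM6, HELLS, CDC6, CDK2 and CKS2), beside 34.8% and 22.0% of all genes. The 36.7% of cell cycle genes higher in the RARRES2-high line was near the share of all genes. By list, mitosis genes were 14 higher and 1 lower of 29, and replication genes 2 higher and 4 lower of 15, but on the reduced total these counts were 9 and 1, and 2 and 6.

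Leaving mitochondrial and ribosomal protein genes out of the CPM total bears on every comparison with the FOLR1-high line. On that scale the median log2 ratio over all genes fell by 0.37 for the ERBB2-high over the FOLR1-high line, by 0.31 for the RARRES2-high over the FOLR1-high line and by 0.057 for the ERBB2-high over the RARRES2-high line. The counts became 3 higher and 25 lower genes in the ERBB2-high against the FOLR1-high line, 13 higher and 8 lower in the RARRES2-high against the FOLR1-high line, and stayed at 2 and 33 for the remaining pair. Over all genes the shares higher and lower were then 28.9% and 24.3% for the first of these pairs, 25.1% and 31.7% for the second, where the balance of all genes turned round, and 33.8% and 22.9% for the last. Calls lost were CDK1 and UBE2S, higher in the ERBB2-high than in the FOLR1-high line, and CDK1, AURKA, BUB1, NUSAP1 and CDKN3, higher in the RARRES2-high than in the FOLR1-high line. Calls gained were all higher in the FOLR1-high line: CDK4, CCNB2, CENPF, UBE2C and KIF20A against the ERBB2-high line, and RRM2 and CCNE1 against the RARRES2-high line. The summed replication ratio of the RARRES2-high over the FOLR1-high line was 0.984 (0.945 to 1.02) on the total count and 0.792 on the reduced total. Among single genes whose interval lay off 1, 5 of 38 ratios of the ERBB2-high to the FOLR1-high line (CLSPN, CCNB1, PLK1, BUB3 and MKI67) and 5 of 40 of the RARRES2-high to the FOLR1-high line (CCND1, CDK4, CENPF, MKI67 and KIF20B) were on the other side of 1 on the reduced total. For mitosis genes the summed RARRES2-high over FOLR1-high ratio was 1.47 and 1.18, and the ERBB2-high over FOLR1-high ratio was 0.941 and 0.728.

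**Figure D1:**
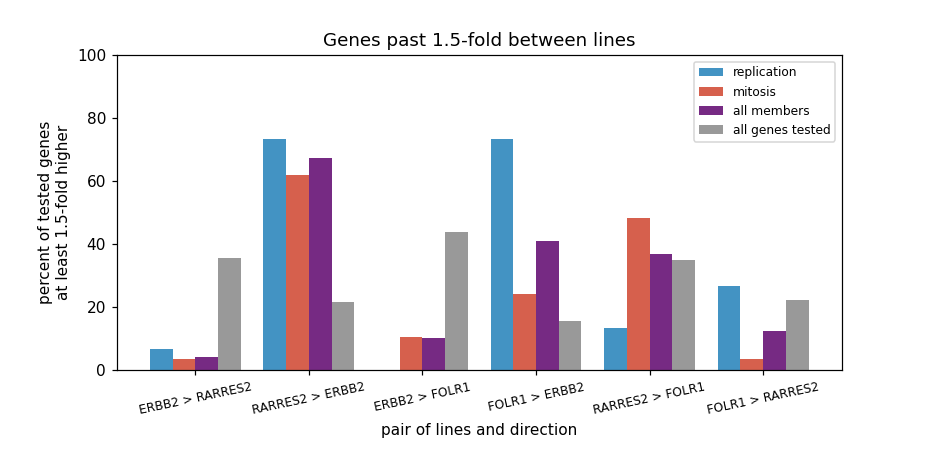
Percent of tested genes whose CPM was at least 1.5-fold higher in the first line named than in the second, for replication genes (blue), mitosis genes (red), all cell cycle genes (purple) and all 10202 genes tested (grey). In the comparison of the RARRES2-high with the ERBB2-high line, 67.3% of the cell cycle genes were higher in the RARRES2-high line, beside 21.5% of all genes.

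The promoters of these genes show the 2 regulatory sequences for which the replication and mitosis programmes are known: sites of E2F factors, and the cell cycle genes homology region (CHR), bound by the DREAM and MuvB complexes. RefSeq promoters of GRCh38.p14, from 250 bases before to 50 after a start site, were at hand for 40 of the 50 genes. The E2F letters searched on both strands were TTTCCCGC, TTTGGCGC, TTTCGCGC and TTTGCCGC. They were in 10 of 13 replication genes, 2 of 24 mitosis genes and 0 of 3 G1 genes, beside 3.99% of the 27305 genes with a promoter and 3.31% of the 35116 promoters. The CHR letters TTTGAA were in 15 of 24 mitosis genes and 1 of 13 replication genes (RRM1), beside 18.2% of all genes and 15.2% of all promoters. TTTAAA, a variant of it, was in 10 of 24 mitosis genes and 2 of 13 replication genes, beside 14.5% of all genes and 12.2% of all promoters, and CCAAT, the NF-Y letters, in 23 of 24 and 10 of 13, beside 39.7% of all genes and 34.6% of all promoters. Of the 40 genes, CDK1 and NUSAP1 held both E2F and TTTGAA letters. A match is a description of letters and not a bound site, and the motifs can overlap.

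For 3 replication genes the 120 bases before the start site are shown, because they carry the E2F letters, which are in capitals on the strand of the gene or as their reverse complement.
PCNA, chr20:5126623-5126742, minus strand: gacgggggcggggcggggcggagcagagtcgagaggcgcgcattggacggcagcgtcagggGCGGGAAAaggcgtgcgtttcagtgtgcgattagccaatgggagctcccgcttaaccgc
MCM6, chr2:135876444-135876563, minus strand: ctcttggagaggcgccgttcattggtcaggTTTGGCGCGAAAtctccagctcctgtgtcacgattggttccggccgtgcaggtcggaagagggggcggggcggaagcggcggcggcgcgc
HELLS, chr10:94545668-94545787, plus strand: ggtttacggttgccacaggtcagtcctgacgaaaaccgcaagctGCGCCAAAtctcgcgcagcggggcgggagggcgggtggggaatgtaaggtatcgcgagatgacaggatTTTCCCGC

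For 5 mitosis genes the same window carries TTTGAA or its reverse complement TTCAAA, again in capitals. In MKI67, CKS1B and CKS2 the first letter of the match nearest the gene lay 29, 30 and 29 bases before the start, in KIF11 it lay 28 bases before it, and in CDC20 it lay 65. All of these distances count from the RefSeq start, which can differ from the start of the deposited transcripts. It lay 156 bases from the start of the 1 KIF11 transcript listed, and 3 to 38 bases from that of the transcript with the most counts in the other genes shown except PCNA. The PCNA window belongs to the upstream start, while the transcript with most of its counts starts 6596 bases further into the gene. In HELLS the most counted transcript starts 29 bases away, but other listed forms start 44354 bases upstream.
MKI67, chr10:128126424-128126543, minus strand: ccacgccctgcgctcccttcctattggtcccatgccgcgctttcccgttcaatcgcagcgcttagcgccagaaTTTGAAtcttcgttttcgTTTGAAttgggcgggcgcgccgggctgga
CKS1B, chr1:154974561-154974680, plus strand: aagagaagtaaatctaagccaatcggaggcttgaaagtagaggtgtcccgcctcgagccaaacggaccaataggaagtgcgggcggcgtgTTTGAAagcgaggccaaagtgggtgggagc
CKS2, chr9:89311075-89311194, plus strand: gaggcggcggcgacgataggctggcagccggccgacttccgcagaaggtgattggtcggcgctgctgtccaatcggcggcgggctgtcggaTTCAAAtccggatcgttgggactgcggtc
KIF11, chr10:92593010-92593129, plus strand: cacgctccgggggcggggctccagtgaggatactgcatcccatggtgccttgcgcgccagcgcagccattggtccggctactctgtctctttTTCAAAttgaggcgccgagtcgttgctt
CDC20, chr1:43358861-43358980, plus strand: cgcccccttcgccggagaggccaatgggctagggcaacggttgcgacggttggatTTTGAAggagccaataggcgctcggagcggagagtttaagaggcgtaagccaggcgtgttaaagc

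Among the G1 genes CDK6 set the lines apart most. CDK6, a partner kinase of the D-type cyclins (ENSG00000105810, chromosome 7), had 35.2 CPM in the ERBB2-high line (29.2 to 42.0), 156 in the RARRES2-high line (143 to 170) and 1.11 in the FOLR1-high line (0.360 to 2.58), the last from 5 counts. The RARRES2-high level was 4.44-fold the ERBB2-high level (3.64 to 5.45) and 141-fold the FOLR1-high level (60.0 to 436). CDK4, its close relative, was at 115, 192 and 170 CPM, a far narrower range. CDK6 was thus nearly missing from a line in which CDK4 was well above its ERBB2-high level, at a ratio of 1.47 (1.30 to 1.66).

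CCND3, a D-type cyclin, was also low in the FOLR1-high line, with 26.1, 24.0 and 5.54 CPM. The ERBB2-high and RARRES2-high levels did not differ beyond counting error, and the RARRES2-high level was 4.33-fold the FOLR1-high one (2.74 to 7.08). CCND1, the D-type cyclin that held 70.8%, 70.5% and 79.3% of the counts of the 5 G1 genes, stood at 446 (424 to 469), 919 (887 to 952) and 764 CPM (739 to 790). It was lowest in the ERBB2-high line, at 0.486 of the RARRES2-high level (0.457 to 0.517). CDK2, the kinase of cyclins E and A, rested on 26, 46 and 106 counts and had 7.55, 13.6 and 23.5 CPM. Its FOLR1-high level was 3.11-fold the ERBB2-high one (2.01 to 4.98) and 1.72-fold the RARRES2-high one (1.21 to 2.49).

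The sum of the G1 genes, 79.3% of it CCND1 in this line, also differed inside the FOLR1-high line, which holds CXCL14-high and DEFB1-high cells. Cells with at least 3 counts of CXCL14 and DEFB1 together were split where CXCL14 held at least 75% or at most 25% of them. Single G1 genes were not compared between the sides, and the remaining cells of the line were left out. In 192 cells on the CXCL14 side G1 genes summed to 1333 CPM (1264 to 1404), and in 87 cells on the DEFB1 side to 722 (657 to 792). Replication genes there were at 1157 and 1251 CPM with overlapping intervals, and mitosis genes at 3460 (3349 to 3575) and 4308 (4147 to 4473). Median depths were 4886.5 and 6526 counts per cell.

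The replication genes did not share 1 order of the lines. MCM2, MCM3, MCM4, MCM5, MCM6 and MCM7 encode the 6 subunits of the replicative helicase, which CDC6 and CDT1 load onto origins. MCM7 (ENSG00000166508, chromosome 7) had 38.3 CPM in the ERBB2-high line (32.1 to 45.5), 132 in the RARRES2-high line (120 to 145) and 136 in the FOLR1-high line (126 to 147). MCM2 had 18.6, 58.0 and 42.1 CPM, MCM3 had 59.6, 107 and 107, and MCM4 had 50.8, 96.8 and 97.9. These 4 subunits were lowest in the ERBB2-high line, with RARRES2-high levels 1.79-fold (MCM3) to 3.45-fold (MCM7) higher.

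MCM5 and MCM6 followed another order. MCM5 had 36.3 (30.2 to 43.3), 34.6 (28.6 to 41.5) and 68.4 CPM (61.0 to 76.5), and MCM6 had 40.4 (33.9 to 47.7), 30.8 (25.2 to 37.3) and 68.0 CPM (60.6 to 76.0). Both were highest in the FOLR1-high line, 1.98-fold (1.59 to 2.47) and 2.21-fold (1.76 to 2.79) above the RARRES2-high line. The RARRES2-high line, which exceeded the ERBB2-high line in the other 4 subunits, did not exceed it in these 2. CDC6 had 31.4, 23.4 and 36.1 CPM, and its FOLR1-high level was not apart from the ERBB2-high one, at 1.15-fold (0.897 to 1.48). CDT1 was lowest in the ERBB2-high line, at 21.5 CPM against 49.1 and 47.8.

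GINS2, part of the active helicase, had 27 CPM in the ERBB2-high line (21.8 to 33.1) against 99.2 (88.8 to 110) and 87.9 (79.5 to 97.0). Its RARRES2-high level was 3.67-fold the ERBB2-high one (2.91 to 4.67). HELLS, a chromatin remodeller of the SNF2 family, went from 21.2 (16.6 to 26.7) through 51.8 (44.4 to 60.1) to 112 CPM (102 to 122). At 5.27-fold (4.12 to 6.84) it had the highest FOLR1-high over ERBB2-high ratio among the 49 genes. PCNA, the sliding clamp of the polymerases, was less uneven, with 90.6 (80.9 to 101), 144 (131 to 157) and 140 CPM (129 to 151).

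The subunits of ribonucleotide reductase, which makes deoxyribonucleotides, did not follow each other. RRM1 had 73.5, 151 and 76.2 CPM and was highest in the RARRES2-high line, 1.98-fold above the FOLR1-high line (1.72 to 2.28). RRM2, counted with its joined entry, had 51.1, 102 and 153 CPM and was highest in the FOLR1-high line, 2.99-fold above the ERBB2-high line (2.53 to 3.55). CLSPN, the checkpoint protein claspin, was highest in the RARRES2-high line with 57.8, 116 and 47.0 CPM. CCNE1, which starts S phase with CDK2, rested on 25, 11 and 22 counts and had 7.26 (4.70 to 10.7), 3.26 (1.63 to 5.83) and 4.87 CPM (3.05 to 7.38). It was the only replication gene past 1.5-fold in favour of the ERBB2-high line, at 2.23-fold over the RARRES2-high line (1.06 to 5.02), and the intervals of the levels overlapped.

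**Figure D2:**
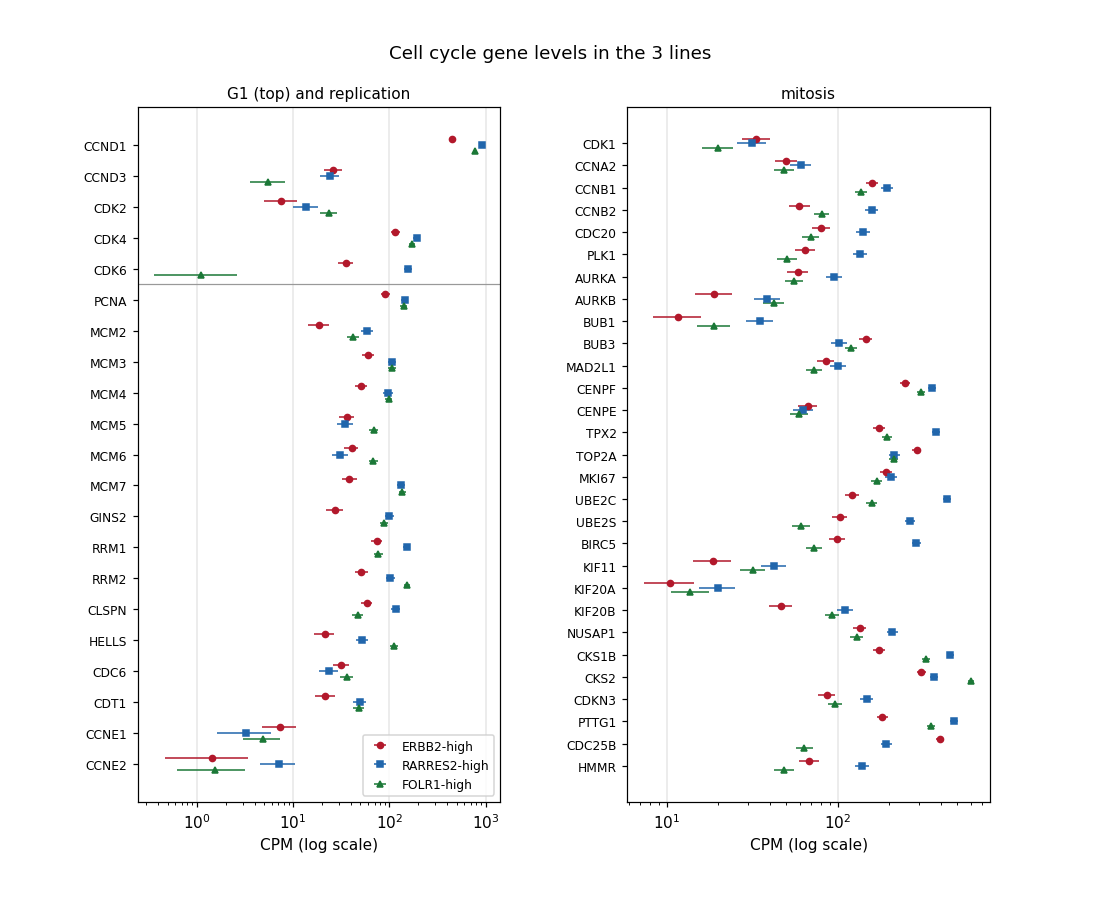
Level of each of the 50 genes in CPM (log scale) in the ERBB2-high (circles), RARRES2-high (squares) and FOLR1-high (triangles) lines, with exact 95% counting intervals, G1 genes above the line in the left panel, replication genes below it and mitosis genes at right. CDK6 in the FOLR1-high line lies at 1.11 CPM, and squares are furthest right for 22 of the 29 mitosis genes. The same was not counted over all genes.

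The RARRES2-high line had the highest level of 22 of the 29 mitosis genes, the ERBB2-high line of 5 and the FOLR1-high line of 2. On the total without mitochondrial and ribosomal protein genes these numbers were 19, 3 and 7. How many of all genes were highest in each line was not counted, so no background stands beside them. UBE2C, UBE2S and BIRC5 had high ratios to both other lines. UBE2C (ENSG00000175063, chromosome 20), the ubiquitin-conjugating enzyme of the anaphase-promoting complex, had 121 CPM in the ERBB2-high line (110 to 134), 434 in the RARRES2-high line (412 to 457) and 158 in the FOLR1-high line (147 to 170). UBE2S, which extends the ubiquitin chains, had 103 (92.1 to 114), 266 (248 to 284) and 61.1 CPM (54.1 to 68.8). BIRC5, survivin, had 99.1 (88.8 to 110), 287 (270 to 306) and 72.4 CPM (64.8 to 80.7). For all 3 genes the RARRES2-high interval lay above both others, at 2.75-fold (2.51 to 3.01), 4.34-fold (3.79 to 4.99) and 3.97-fold (3.50 to 4.51) the FOLR1-high level. UBE2S overlaps RPL28 on the opposite strand, a gene with 59206 counts, and the use of strand in counting remains not given in the sources used here.

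Further mitosis genes past 1.5-fold in the RARRES2-high line against both others were CCNB2 (59.6, 157 and 80.4 CPM), CDC20 (80.2, 140 and 69.3), PLK1 (64.2, 135 and 50.5), AURKA (58.4, 95.3 and 55.6), BUB1 (11.6, 34.9 and 18.8), TPX2 (174, 373 and 194), NUSAP1 (134, 208 and 129), CDKN3 (86.3, 148 and 95.9) and HMMR (68.0, 139 and 48.5). Against the FOLR1-high line AURKA, BUB1, NUSAP1 and CDKN3 were at 1.71, 1.86, 1.62 and 1.54, and on the total without mitochondrial and ribosomal protein genes all 4 fell below 1.5, to 1.38, 1.49, 1.30 and 1.24. The 9 genes include the mitotic kinases PLK1 and AURKA, the AURKA activator TPX2, and CDC20, which activates the anaphase-promoting complex.

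MKI67, TOP2A, CDK1 and CENPE did not share this pattern. MKI67, the Ki-67 antigen (ENSG00000148773, chromosome 10), had 191 (177 to 206), 205 (190 to 221) and 169 CPM (157 to 181), and its ERBB2-high and RARRES2-high intervals overlapped. TOP2A, the topoisomerase that untangles chromosomes (ENSG00000131747, chromosome 17), was highest in the ERBB2-high line with 289 CPM (271 to 308) against 213 (198 to 230) and 212 (199 to 226). CDK1, the mitotic kinase itself, had 33.4 (27.6 to 40.1), 31.4 (25.7 to 38.0) and 19.9 CPM (16 to 24.5), and CENPE 66.8, 62.5 and 59.4. None of these 4 genes reached 1.5-fold between the RARRES2-high and ERBB2-high lines, unlike 18 of the 29 mitosis genes. CDK1 was 1.57-fold higher in the RARRES2-high than in the FOLR1-high line (1.18 to 2.11), and 1.27-fold on the reduced total.

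CDC25B and CKS2 ran against the rest in opposite ways. CDC25B, a phosphatase that activates cyclin-dependent kinases, had 394 CPM in the ERBB2-high line (374 to 416), 192 in the RARRES2-high line (178 to 207) and 63.8 in the FOLR1-high line (56.6 to 71.6). Its ERBB2-high level was 2.05-fold (1.87 to 2.26) and 6.18-fold (5.44 to 7.05) those of the other lines, and it held 11.3% of the mitosis counts there. CKS2, a small subunit of the kinase complexes, had 307 (289 to 326), 366 (346 to 387) and 598 CPM (576 to 621), and held 16.2% of the mitosis counts of the FOLR1-high line. CKS1B, its paralogue, was instead highest in the RARRES2-high line with 174, 455 and 328 CPM. KIF11, KIF20B, AURKB and PTTG1, securin, were lowest in the ERBB2-high line and past 1.5-fold below both others.

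Other genes of the same pathways come from lists that hold no member. The 27 other replication genes summed to 1066 (1032 to 1101), 1894 (1848 to 1941) and 1100 CPM (1069 to 1131), so the FOLR1-high line was near the ERBB2-high line here. The RARRES2-high sum was 1.72-fold the FOLR1-high one (1.66 to 1.79), or 1.39-fold on the reduced total, where the 16 genes above gave 0.984 and 0.792. The median ratio of single genes was 0.989 both over the 27 genes and over the 15 tested above, so the lists differed in their sums and not in this median. Against the RARRES2-high line, 12 of the 27 were lower and 1 was higher (CHAF1B) in the ERBB2-high line, beside 21.5% and 35.6% of all genes. Against the FOLR1-high line 7 were lower and 1 was higher (ATAD2), beside 15.6% and 43.8%. On the reduced total these became 14 and 0, beside 24.3% and 28.9%. Much of the RARRES2-high excess came from 2 enzymes of nucleotide supply: TK1, thymidine kinase, had 85.7, 472 and 81.9 CPM, and DUT, the dUTPase, 223, 452 and 192. The TK1 level was 5.51-fold the ERBB2-high one (4.87 to 6.26) and 5.77-fold the FOLR1-high one (5.15 to 6.47).

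The 28 other mitosis genes summed to 1834 (1789 to 1880), 3368 (3306 to 3430) and 1944 CPM (1903 to 1985). TUBB4B, a tubulin, held 21.0%, 31.7% and 31.3% of these counts. Leaving it out, which was decided once these values were seen, gave 1450 (1410 to 1491), 2299 (2248 to 2350) and 1335 CPM (1302 to 1369), so the RARRES2-high line was still highest but the FOLR1-high line was then below the ERBB2-high line. Against the ERBB2-high line, 14 of the 28 were higher and 0 lower in the RARRES2-high line, beside 21.5% and 35.6% of all genes. Against the FOLR1-high line the same counts, 14 and 0, were found, beside 34.8% and 22.0%. These became 8 and 0 on the reduced total, beside 25.1% and 31.7%, so the 8 were near the share of all genes. In the ERBB2-high against the FOLR1-high line 8 were higher and 4 lower, beside 43.8% and 15.6%. On the reduced total these became 3 and 12, beside 28.9% and 24.3%. ANLN, anillin of the cleavage furrow, had 47.1, 148 and 31.0 CPM, and TTK, a spindle checkpoint kinase, 25.3, 40.3 and 9.08. The RARRES2-high line was thus highest in 2 sets of mitosis genes that share no gene, measured in the same cells.

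Regulators of the cycle separated the lines in other ways. FOXM1, a transcription factor of mitotic genes, had 17.7, 86.1 and 24.1 CPM, 4.86-fold higher in the RARRES2-high than in the ERBB2-high line (3.68 to 6.52). E2F1 was at 15.1, 15.1 and 10.6 CPM, with overlapping intervals. CDC25A, the phosphatase of the entry into S phase, rested on 5, 53 and 27 counts, a ratio of 10.8 between the RARRES2-high and ERBB2-high lines (4.35 to 34.6).

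Among inhibitors of the kinases, CDKN2D (p19) was highest in the RARRES2-high line, with 7.26, 18.9 and 6.42 CPM, and those that follow were highest in another line. CDKN2A, which encodes p16 and ARF, had 1, 0 and 88 counts, or 19.5 CPM in the FOLR1-high line (15.6 to 24.0), and the 0 allows up to 0.888 CPM in the RARRES2-high line by a limit of 3 counts, or 1.09 CPM by the exact interval. CDKN1A (p21) had 7.55, 7.99 and 36.1 CPM, 4.78-fold higher in the FOLR1-high than in the ERBB2-high line (3.15 to 7.54). CDKN1B (p27) had 29.6, 12.7 and 43.6 CPM, and CDKN2C (p18) 29.3, 10.7 and 4.43. RB1, the brake on E2F factors, was lowest in the FOLR1-high line with 73.8, 44.4 and 17.9 CPM, the ERBB2-high level being 4.11-fold higher (3.19 to 5.35). The FOLR1-high line therefore combined the highest CDKN2A and CDKN1A levels with the lowest RB1, CDK6 and CCND3 levels.

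The summed levels hide how mitosis counts were spread over cells. Each cell was thinned to 2000 counts, which left out 42, 30 and 32 shallower cells. In the ERBB2-high line the median cell then had 2 mitosis counts, 17.7% of 606 cells had none, and 17.7% had at least 10 (14.7 to 20.9%). The median RARRES2-high cell had 10, 3.61% of 443 cells had none and 50.8% had at least 10 (46.0 to 55.5%). In the FOLR1-high line the median was 4, 9.82% of 733 cells had none and 19.9% had at least 10 (17.1 to 23.0%). Without thinning, 28.2%, 79.7% and 49.8% of cells had at least 10 mitosis counts. Thinning without mitochondrial and ribosomal protein genes, an alternative chosen after seeing the data, gave 18.9%, 60.4% and 32.4%, so the FOLR1-high share depends on that choice. The limit is a cut through a continuous range, with 19, 41 and 38 cells at 9 or 10 counts.

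Mitosis counts were concentrated in few ERBB2-high cells and spread over most RARRES2-high cells. The tenth of cells with the most mitosis counts held 53.0% of them in the ERBB2-high line, 23.4% in the RARRES2-high line and 42.9% in the FOLR1-high line. The variance of the counts was 15.3, 5.11 and 11.4 times their mean, and the highest cells had 55, 35 and 53 mitosis counts. The RARRES2-high line thus had the highest mean, 10.7 against 5.74 and 6.90, but the lowest maximum. Replication counts were sparse: 9, 3 and 12 cells had at least 10, and 58.1%, 19.0% and 25.4% had none. Of the 9 ERBB2-high cells with at least 10 replication counts, 7 also had at least 10 mitosis counts, as did 2 of 3 in the RARRES2-high line and 4 of 12 in the FOLR1-high line, numbers too small to compare the lines.

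**Figure D3:**
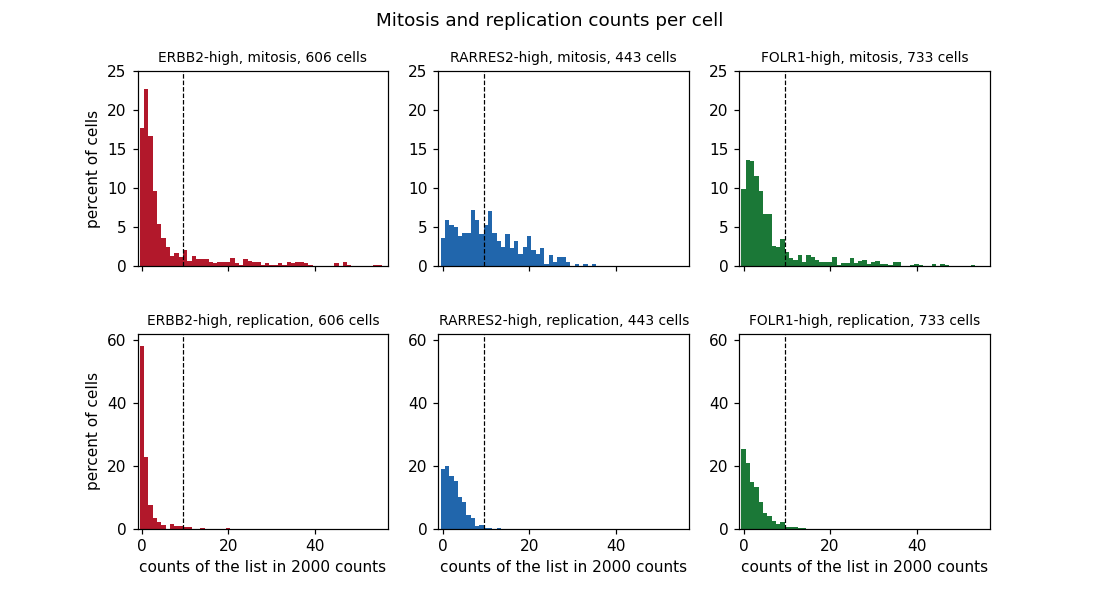
Percent of cells by the number of mitosis counts (top row) and replication counts (bottom row) among 2000 counts per cell, in each line; the dashed line marks the limit of 10. ERBB2-high cells pile up at 0 to 3 mitosis counts with a long tail up to 55, whereas RARRES2-high cells form a broad range around the median of 10.

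Cells with at least 10 mitosis counts were compared with the other cells of their line in genes that did not define them. In the ERBB2-high line they had 10.1 times the counts of the other mitosis list (9.16 to 11.2), in the RARRES2-high line 2.22 times (2.05 to 2.40) and in the FOLR1-high line 5.44 times (5.03 to 5.88). Their replication counts were 3.65 times (3.11 to 4.28), 0.935 times (0.831 to 1.05) and 1.48 times (1.33 to 1.64) those of the remaining cells. G1 genes differed little, with ratios of 1.14 (0.9495 to 1.36), 1.04 (0.927 to 1.17) and 0.866 (0.755 to 0.989). Before thinning these cells were deeper, with medians of 7092 against 4935, 7017 against 6223.5 and 6056.5 against 5287 counts. Both sides were taken at the same 2000 counts, and what the depth itself shows of the cells was not tested. The limit of 10 lay at the median of the RARRES2-high cells but took 17.7% of the ERBB2-high and 19.9% of the FOLR1-high cells. How far these ratios differ between lines therefore depends on where the cut falls.

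Single genes showed the same contrast. At 2000 counts, genes found in at least 10% of the cells had a median ratio of variance to mean of 1.04, 1.06 and 1.05 in the 3 lines, over 3072, 2757 and 2312 genes. For mitosis genes the median was 1.82, 1.22 and 1.59, over the 17, 23 and 19 genes that passed this filter in each line, which are not the same genes. In the ERBB2-high line TOP2A had 3.68 times the variance of its mean, CKS2 3.29 and CENPF, a kinetochore protein, 3.24. CDC25B, with 1.17, was different: it was found in 51.7% of the ERBB2-high cells, against 17.7% for TOP2A and 17.0% for MKI67.

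Correlation across cells followed the spread. Pearson correlations of log-transformed counts at equal depth are given as descriptions; the cells share 1 library, and sparse counts lower them. Within mitosis genes found in at least 10% of cells the median was 0.34 over 136 pairs in the ERBB2-high line, 0.11 over 253 pairs in the RARRES2-high line and 0.25 over 171 pairs in the FOLR1-high line, while the median over all gene pairs was near 0 in each line. The highest pairs were TOP2A with UBE2C (0.71), CCNB1 with CKS2 (0.61) and NUSAP1 with TOP2A (0.61) in the ERBB2-high line. In the RARRES2-high line CENPF led with MKI67, TOP2A and TPX2 (0.34, 0.34 and 0.33), and in the FOLR1-high line with UBE2C, TOP2A and MKI67 (0.57, 0.52 and 0.51).

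Replication genes varied together only weakly, with medians of 0.067 and 0.11 over 45 pairs each in the RARRES2-high and FOLR1-high lines; only PCNA and RRM1 were frequent enough in the ERBB2-high line. The summed replication and mitosis counts of a cell correlated at 0.43 in the ERBB2-high line, 0.14 in the RARRES2-high line and 0.37 in the FOLR1-high line. By ranks the RARRES2-high value was 0.014. With the other mitosis genes, CDC25B correlated at 0.18 in the ERBB2-high line, where CENPF reached 0.62, and CCND1, a G1 gene, at -0.0020. In the RARRES2-high line the same 3 values were 0.10, 0.42 and 0.14, so CCND1 was not below CDC25B there.

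**Figure D4:**
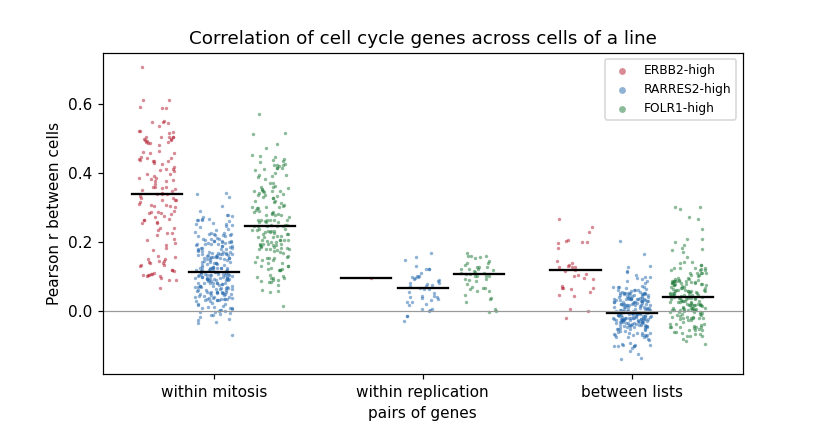
Pearson correlation across the cells of a line, at 2000 counts per cell, for each pair of mitosis genes, each pair of replication genes and each pair of a replication with a mitosis gene, restricted to genes found in at least 10% of cells; bars mark medians. Pairs within mitosis genes have medians of 0.34, 0.11 and 0.25 in the 3 lines.

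Long reads also assign counts to transcripts. Of the 50 genes, 12 had 1 listed transcript and 38 had more. The lines mostly used the same transcripts. A transcript share differed by at least 20 percentage points in 0 of 44 tested genes between the ERBB2-high and RARRES2-high lines, beside 1.90% of the 5472 genes tested in all. In the ERBB2-high against the FOLR1-high line 2 of 42 passed, AURKA and AURKB, beside 1.72% of 5749 genes, and in the RARRES2-high against the FOLR1-high line 1 of 44 passed, AURKB, beside 2.52% of 5307 genes. A gene with 1 listed transcript cannot differ. Of genes with 2 or more, 0 of 32, 2 of 30 and 1 of 32 passed, beside 2.45%, 2.21% and 3.25% of all such genes. The median of the largest share difference per gene was 2.91, 2.81 and 3.26 points for these pairs, and 3.20, 3.17 and 3.49 points over all genes with 2 or more transcripts.

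AURKB, the kinase of the chromosomal passenger complex, had its transcript ENST00000585124 at 59.7% of 65 counts (47.1 to 72.0%), 55.8% of 131 (46.8 to 64.4%) and 79.9% of 190 (73.6 to 85.4%). ENST00000534871, which lacks the 73-base exon 2 of ENST00000585124 (chr17:8210177-8210249, annotated as not wholly coding) and 17 bases of its exon 1, had 21.4%, 26.1% and 12.2%. These shares rest on reads split between transcripts: among counts given whole to 1 transcript, ENST00000585124 had 87.0%, 75.5% and 87.3%, from 23, 53 and 63 such counts. AURKA, the spindle pole kinase, had ENST00000347343, whose first exon (chr20:56391943-56392205, annotated as not wholly coding) overlaps that of ENST00000371356 and holds 225 further bases on its downstream side, at 31.1% (25 to 38.2%), 13.1% (9.56 to 17.2%) and 10.7% (7.21 to 15.3%). Only 25, 78 and 88 AURKA counts were whole, of which this form had 44.0%, 17.9% and 12.5%, so it was highest in the ERBB2-high line by either measure.

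BUB3 and HMMR were picked after their values were seen. BUB3, a spindle checkpoint protein, had ENST00000368858 at 36.8% (32.6 to 41.2%), 35% (30.1 to 40.5%) and 51.8% (47.5 to 56.1%). This form lacks the first 1227 and the last 5102 bases of the last exon of ENST00000368865. It also lacks 138 bases of exon 1 of that transcript, so the share does not describe the start of the last exon alone. Among whole counts ENST00000368858 had 38.0%, 31.6% and 54.9% of 287, 225 and 315. The RARRES2-high against FOLR1-high difference of 23.4 points was then the only one past 20 points among the members tested. The BUB3 order was thus the same with and without split reads.

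HMMR, a spindle protein, had ENST00000353866 at 48.4% (41.7 to 54.9%), 37.6% (33.1 to 42.1%) and 37.4% (31.0 to 44.2%). This form skips the 48-base coding exon 4 of ENST00000393915, which held 44.7%, 52.4% and 48.0%, and the forms also differ by 366 bases at the 3' end (chr5:163491580-163491945), so the share does not describe exon 4 alone. Among whole counts the skipping form had 70.4%, 52.3% and 56.99%. It was highest in the ERBB2-high line by both measures.

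**Figure D5:**
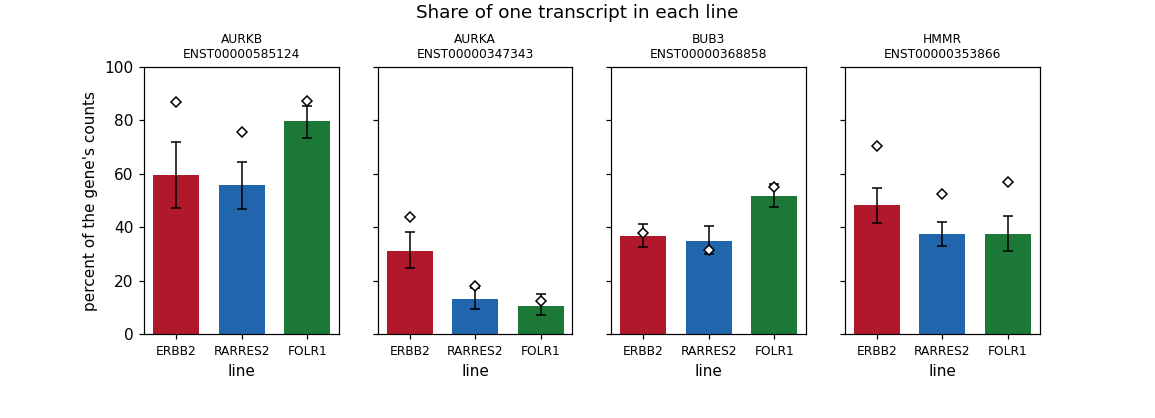
Share of 1 transcript in the counts of its gene (percent, bars from 0) in the ERBB2-high, RARRES2-high and FOLR1-high lines, with exact 95% counting intervals; diamonds give the share among counts assigned whole to 1 transcript. For AURKB the FOLR1-high bar is highest at 79.9%, while its diamonds lie at 87.0%, 75.5% and 87.3%.

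For HMMR and KIF20B a coding segment held by only 1 of the 2 forms compared is shown, from GENCODE release 29 on GRCh38. In KIF20B, a kinesin of cytokinesis, ENST00000371728 begins exon 16 a further 120 bases upstream and had 36.8%, 40.02% and 39.2%, so both forms were present in every line at like shares. The sequences of this segment and of the HMMR exon are written in lower case since no letter is singled out.
HMMR, chr5:163467701-163467748, plus strand: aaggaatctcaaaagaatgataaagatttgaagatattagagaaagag
KIF20B, chr10:89726293-89726412, plus strand: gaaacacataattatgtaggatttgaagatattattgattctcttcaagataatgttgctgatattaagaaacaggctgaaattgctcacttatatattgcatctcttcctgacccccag

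The lengths of these segments, 48 and 120 bases, are multiples of 3, so neither of them shifts the reading frame. MKI67 differs by a longer segment: ENST00000368654 holds a 1080-base exon 7 (chr10:128114928-128116007) that ENST00000368653 lacks, beside 181 bases of exon 1, and had 76.2%, 71.5% and 79.3% of all counts but 52.4%, 55.3% and 55.7% of whole counts. In that gene the way split reads were divided moved the share more than the line did. PCNA has 2 transcripts that differ in their start, and the upstream one, ENST00000379160, whose start the promoter window above flanks, had 16.7% (12.7 to 21.3%), 14.9% (11.8 to 18.3%) and 25.5% (22.1 to 29.1%).

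Some of these genes share reads or positions with others. Named pseudogene copies or paralogues were listed for 13 of the 50 genes, such as CKS1B, PTTG1, UBE2C and PCNA, and at most 1 count was assigned to the copies of any gene; how reads of such copies were divided was not tested. In total 9 genes overlap a gene on the opposite strand that had counts, and in 3 of them (UBE2S, CCNE2 and KIF20A) the partner had more counts.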

How the data were processed

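The authors deposited estimated counts per transcript and barcode for the PromethION library, not normalised and not whole where a read was divided between transcripts. The submitters' processing notes name Cell Ranger 6.0.1 and GRCh38, and the series design text names Isosceles. The aligner, the package version and whether molecular identifiers were collapsed remain not given in the sources used here. Intervals on levels, ratios and transcript shares therefore cover counting error at most, as if each count were a separate molecule. Those on transcript shares leave out the division of reads between transcripts. Those on shares of cells treat the cells of 1 library as independent draws. Estimated counts were summed per gene entry, where 100% of sums were whole within 1e-06, and over the cells of a line. CPM have Poisson intervals, shares Clopper-Pearson intervals and ratios exact binomial intervals (scipy 1.17.1). A transcript was compared where its gene had at least 50 counts in both lines. Doublets were not removed beyond mixed markers; Scrublet (scanpy 1.11.5, expected rate 0.02) called 77 barcodes, 10, 11 and 9 of them in the lines, and leaving them out was an alternative. Cells were thinned without replacement with seed 0. Fold, share and interval scripts were tested on simulated data. Genes named were, per pair of lines and direction, the 5 with the largest ratio past 1.5-fold, the 3 with the largest transcript share difference past 20 points, the 3 most correlated pairs per line, always MKI67, TOP2A, PCNA, MCM2 to MCM7, CCNE1, CCND1, CDK1, CDK2, CDK4 and CDK6, and, of other cell cycle genes, CDKN1A, CDKN2A, CDKN1B, E2F1, FOXM1 and the 3 with the largest ratio per pair; other names were chosen after their values were seen. The members and lists were chosen with earlier results of these data known. Some genes that this rule would name are not reported here.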

Additional observations from a re-analysis of the deposited data

How the results depend on the processing

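No paired analysis was possible because each platform has 1 library and no result comes from a test. Counting error, or for shares of cells the number of cells, is all that the intervals hold, not the spread between cultures, and replication genes are too sparse per cell to sort cells by them. Under other settings, 135 values of the main results stayed within the interval, or within 1.5 times a count, and 57 moved further, with no direction fixed by an interval changed among them; of the values for single genes and other results 670 stayed, 118 moved and 13 changed direction. Without mitochondrial and ribosomal protein genes the ERBB2-high over FOLR1-high ratio became 0.952 for CLSPN, 0.898 for CCNB1, 0.983 for PLK1, 0.947 for BUB3 and 0.877 for MKI67, and the RARRES2-high over FOLR1-high ratio became 0.968 for CCND1, 0.908 for CDK4, 0.932 for CENPF, 0.978 for MKI67 and 0.960 for KIF20B. With the mean of cells the ERBB2-high ratio became 0.972 for MCM6 over the RARRES2-high line and 0.975 for MKI67 over the FOLR1-high line. Without TUBB4B the other mitosis genes had an ERBB2-high over FOLR1-high ratio of 1.09 in place of 0.944. In the sums, the ratios of the ERBB2-high to the RARRES2-high line became 0.416 (replication) and 0.549 (mitosis) with the mean of each cell's own CPM, and for mitosis 0.582 at 90% marker purity, 0.619 without Scrublet calls and 0.614 without mitochondrial and ribosomal protein genes. Ratios of the ERBB2-high to the FOLR1-high line became 0.445 and 0.819 with the mean of cells, 0.396 (replication), 0.506 (G1) and 0.728 (mitosis) without those genes, and for mitosis 0.887 at 90% purity and 0.918 without Scrublet calls. Ratios of the RARRES2-high to the FOLR1-high line became 1.07 (replication) and 1.26 (G1) with the mean of cells, 0.792, 1.09 and 1.18 for replication, G1 and mitosis without those genes, and 1.52 for mitosis at 90% purity. Replication counts per mitosis count became 0.191 in the ERBB2-high line at 90% purity and 0.242 in the RARRES2-high line with the mean of cells. Of the counts past 1.5-fold, genes higher in the ERBB2-high than in the RARRES2-high line became 1 at 90% purity and 1 with at least 200 counts; genes higher in the ERBB2-high than in the FOLR1-high line became 3 without mitochondrial and ribosomal protein genes and 3 at a limit of 2-fold. That limit also gave 8 genes higher in the FOLR1-high than in the ERBB2-high line, 10 in the RARRES2-high than in the FOLR1-high line and 2 the other way. Of 84 member ratios past 1.5, 11 fell below it in at least 1 alternative and 0 fell below 1. Transcript counts for the 3 pairs became 4, 5 and 4 at 10 points and 0 in both pairs with the FOLR1-high line at 30 points. ERBB2-high against RARRES2-high gave 1 at 90% purity; ERBB2-high against FOLR1-high gave 1 at 100 counts, at 90% purity and without Scrublet calls, and 0 with whole estimates alone. The share of cells with at least 5 mitosis counts was 27.9%, 76.5% and 41.7%, and with at least 20 it was 9.41%, 15.1% and 10.1%; for replication it was 5.94%, 19.0% and 17.1%, and 0.165%, 0% and 0%. Thinning to 4000 with a limit of 20 gave 0% (RARRES2-high) and 0.180% (FOLR1-high) for replication. Thinning to 2000 counts without mitochondrial and ribosomal protein genes, chosen after seeing the data, gave 60.4% and 32.4% for mitosis and 2.33% and 6.26% for replication in the RARRES2-high and FOLR1-high lines. The correlation of the list sums became 0.50 in the ERBB2-high line at 4000 counts and 0.014 by ranks in the RARRES2-high line.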
